A study of Homo sapiens with 10 samples.

Results

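The G2 and mitosis genes described here are 31 protein-coding genes, named by a list of symbols that ran from the CDK1 cyclins to the spindle motors. All 31 symbols were found once each among the 55771 gene symbols of the long RNA tables, and all 31 passed the filter on low counts (1 CPM or more in 2 libraries or more, where CPM is the count scaled to the library size). They were measured in cells labelled BEAS-2B, a line of human bronchial epithelium made immortal with viral genes, as stable lines kept in medium with G418 and 10% FBS that carried either an empty vector or a TAF1C vector with the pCMV6 promoter. TAF1C belongs to the complex SL1, through which RNA polymerase I starts on ribosomal RNA genes. There were 2 empty vector libraries and 3 libraries labelled TAF1C, made from total RNA after ribosomal RNA depletion, and their gene counts summed to 22809601 and 28476151, and to 37533366, 36481548 and 34212883. The labels do not say whether a line was 1 clone or a pool, or whether replicates came from different cultures. A p-value here therefore measures spread among these libraries, which may be technical. The small RNA libraries of the same series were not used here.

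Before the members, the labels were checked, and the targeted gene did not follow them, while both empty vector libraries held markers of another cell type. The TAF1C transcript was at 64.4 and 77.7 CPM (scaled with TMM factors, as are all levels below) with the empty vector and 64.01, 58.97 and 67.04 CPM under the TAF1C label. Its log2 difference was -0.17 ± 0.13 (SE; edgeR adjusted p = 0.353; exact two-sided permutation p = 0.4, where the smallest possible is 0.2). It was not higher under its own label, so the groups are named by their labels throughout. Both empty vector libraries held photoreceptor transcripts, which a bronchial line should lack: of 22 such genes, 17 of the 18 tested were lower under the TAF1C label, and the summed level of the list was 3287 and 2396 CPM with the empty vector and 26.5, 18.97 and 24.6 CPM under the TAF1C label. OTX2 and CRX, transcription factors of the retina named after their values were seen, were both abundant with the empty vector only. OTX2 was at 303 and 425 CPM with the empty vector and 0.228, 0.0588 and 0.124 CPM under the TAF1C label, and CRX at 212 and 362 CPM with the empty vector and 1.65, 1.03 and 1.45 CPM under the TAF1C label. The most abundant gene of the list, IMPG2 of the photoreceptor matrix, was at 869 and 680.1 CPM with the empty vector and 0.770, 0.529 and 0.990 CPM under the TAF1C label. Of 14 neuronal genes all 11 tested were lower, with sums of 574 and 613 CPM with the empty vector and 12.1, 12.7 and 12.9 CPM under the TAF1C label, led by SYP. No gene of either list was at 0 in all 3 libraries labelled TAF1C. The epithelial keratin KRT7 was at 223 and 247 CPM with the empty vector and 1052, 967 and 1062 CPM under the TAF1C label. The mesenchymal gene FN1 was at 242 and 179.9 CPM with the empty vector and 2417, 2455 and 2459.7 CPM under the TAF1C label. FN1 was not typical of its list: of 8 mesenchymal genes 2 rose and 1 fell (median log2 -0.062), and the counts were 2 raised and 6 lowered against the first empty vector library alone and 5 and 1 against the second alone. Adhesion genes that define epithelium were low: EPCAM was at 14.7 and 1.10 CPM with the empty vector and 0.0570, 0.176 and 0.433 CPM under the TAF1C label, and E-cadherin (CDH1) at 2.97 and 0.355 CPM with the empty vector and 1.23, 0.588 and 1.45 CPM under the TAF1C label. The photoreceptor and neuronal sums split the libraries exactly as the vector labels do, so in every comparison below the vector and the kind of cell cannot be told apart. No empty vector library without these markers was at hand to repeat a comparison. The empty vector libraries also stood apart from each other: the SD of their log2 difference over genes was 1.08, against 0.383 to 0.416 between pairs labelled TAF1C. In bulk RNA, fewer dividing cells and less RNA of these genes per cell cannot be told apart.

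As background, a cell enters mitosis when CDK1 binds cyclin A or cyclin B and is freed of the inhibitory phosphates that WEE1 adds and CDC25 phosphatases remove. PLK1 and the Aurora kinases then build the spindle, the kinetochores join chromosomes to its microtubules, and a checkpoint that includes BUB1, BUB1B and TTK holds the anaphase-promoting complex (APC/C), a ubiquitin ligase, until every chromosome is attached. CDC20 then activates the APC/C, which has securin (PTTG1) and cyclin B destroyed, so that sister chromatids part and the cell divides. The transcripts of these genes are kept low in resting cells by the DREAM complex. They are switched on in G2 by B-MYB (MYBL2), the MuvB proteins and FOXM1. The promoters of these genes often hold CCAAT boxes and a nearby element called the cell cycle genes homology region (CHR).

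Because the members are known for these shared promoter elements, the 250 bases before the start site are shown for the 2 members with the largest rise and the 2 with the lowest log2 fold change among those with a promoter entry (RefSeq, GRCh38.p14, gene strand, 5′ to 3′). Capitals mark CCAAT, or its reverse complement, and the CHR sequences TTTGAA or TTCGAA, or their reverse complements. The windows lie at chr1:43358731-43358980 (plus strand) for CDC20, chr5:69166900-69167149 (plus strand) for CCNB1, chr1:211675622-211675871 (minus strand) for NEK2 and chr1:214602945-214603194 (plus strand) for CENPF.
CDC20: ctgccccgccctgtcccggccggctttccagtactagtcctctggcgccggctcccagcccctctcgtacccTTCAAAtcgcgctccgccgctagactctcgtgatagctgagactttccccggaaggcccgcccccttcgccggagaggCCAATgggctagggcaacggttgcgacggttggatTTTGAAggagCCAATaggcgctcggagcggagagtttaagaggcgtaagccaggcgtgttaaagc
CCNB1: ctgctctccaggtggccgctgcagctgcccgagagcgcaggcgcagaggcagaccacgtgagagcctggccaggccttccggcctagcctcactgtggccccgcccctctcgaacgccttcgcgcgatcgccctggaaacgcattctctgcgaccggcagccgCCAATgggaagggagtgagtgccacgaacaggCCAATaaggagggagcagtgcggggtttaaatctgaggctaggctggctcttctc
NEK2: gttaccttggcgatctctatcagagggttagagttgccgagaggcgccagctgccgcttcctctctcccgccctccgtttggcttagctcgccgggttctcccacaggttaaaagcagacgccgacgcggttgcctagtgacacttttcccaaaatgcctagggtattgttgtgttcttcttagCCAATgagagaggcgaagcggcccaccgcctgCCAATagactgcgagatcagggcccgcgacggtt
CENPF: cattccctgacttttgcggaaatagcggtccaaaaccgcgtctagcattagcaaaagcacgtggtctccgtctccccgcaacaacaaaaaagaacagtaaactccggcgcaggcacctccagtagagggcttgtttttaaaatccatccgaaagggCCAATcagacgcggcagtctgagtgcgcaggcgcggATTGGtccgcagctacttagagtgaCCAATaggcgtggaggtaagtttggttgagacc
CDC20, which rose, held CCAAT 100 and 55 bases before the start and TTTGAA 178 and 65 bases before it. CCNB1, which also rose, held CCAAT at 87 and 55 bases and neither TTTGAA nor TTCGAA in this window. Other forms of the CHR were not searched for. NEK2 and CENPF, the members with the lowest values, held CCAAT as well, at 66 and 34 bases in NEK2 and at 94, 58 and 33 bases in CENPF. Their windows also held neither TTTGAA nor TTCGAA. In these 4 windows no match overlapped another.

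Counted over the window from 250 bases before to 50 after the start and on both strands, CCAAT stood in a promoter of 21 of the 26 members (80.8%) and of 39.7% of all 27305 genes in the table. TTTGAA stood in 17 of the 26 members (65.4%) and of 18.2% of all 27305 genes in the table, and TTCGAA in 2 of the 26 members (7.69%) and of 1.82% of all 27305 genes in the table. Of the 32 promoters these members have, 17 (53.1%) held CCAAT at least 2 times, against 10.8% of all promoters, where overlapping matches on opposite strands were counted separately. CCNB2 held CCAAT at 244, 120, 87 and 54 bases before the start and TTTGAA at 29 bases. AURKA, BIRC5, TTK, TPX2 and UBE2C have no entry in the table. A match is a description of the letters and was not tied to the levels below.

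The comparison of the libraries labelled TAF1C with the empty vector libraries asked which of these genes differ between the lines. Cyclins A2 and B1, the kinases PLK1 and AURKA, the spindle proteins TPX2, HMMR, KIF2C and KIF20A, the APC/C partners CDC20 and UBE2C, securin and the cleavage furrow protein ANLN were higher in all 3 libraries labelled TAF1C than in either empty vector library. The means of these 12 under the TAF1C label were 1.46 to 1.998 times the mean of both empty vector libraries. Over the second empty vector library alone, they were 1.29 (PTTG1) to 1.73 (AURKA) times its level. CDK1 itself, cyclin B2, the proliferation antigen MKI67 and the kinetochore genes were not past the test, and CENPF was lower in all 3 libraries. Of the 31 members, 12 (38.7%) rose at an edgeR adjusted p under 0.05, against 15.9% of the 18402 genes tested, and 0 fell, against 22.6%. Of the 14332 protein-coding genes among those tested, 18.8% rose and 21.1% fell, with a median log2 fold change of -0.011. Without adjustment 15 members were higher and 1 was lower at an edgeR p under 0.05. The shares of all genes without adjustment were not counted, and they cannot be smaller than those after it. DESeq2 called 13 members higher and 1 lower (against 20% and 23.9% of all genes). Called in either direction were 38.5% of all genes, so the share of members called was near the background, and all 12 calls were in 1 direction. The median log2 fold change of the members was 0.42, beside -0.10 over all genes tested, and 28 of the 31 values were above 0. Both medians moved with the scaling. With library totals the members were at 0.21 beside -0.33 over all genes, and with upper quartile scaling at 0.36 beside -0.17. With RLE size factors they were at 0.48 beside -0.036. The gap narrowed with quantile normalization, to 0.27 beside 0.22. With library totals and with quantile normalization alike, 25 of 31 values were above 0. The median of all genes was below 0 with the former and above 0 with the latter, so these counts have unlike backgrounds.

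With any 1 library labelled TAF1C left out, AURKA alone passed, so that 1 member was raised in each of the 3 fits, against 5.84%, 6.48% and 5.94% of all genes. Levels did not overlap between the groups for 21 members, 19 higher in all libraries labelled TAF1C (61.3%, against 29.8% of all tested genes) and 2 lower (6.45%, against 34.4%). The 12 raised members were all among the 19.

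**Figure D1:**
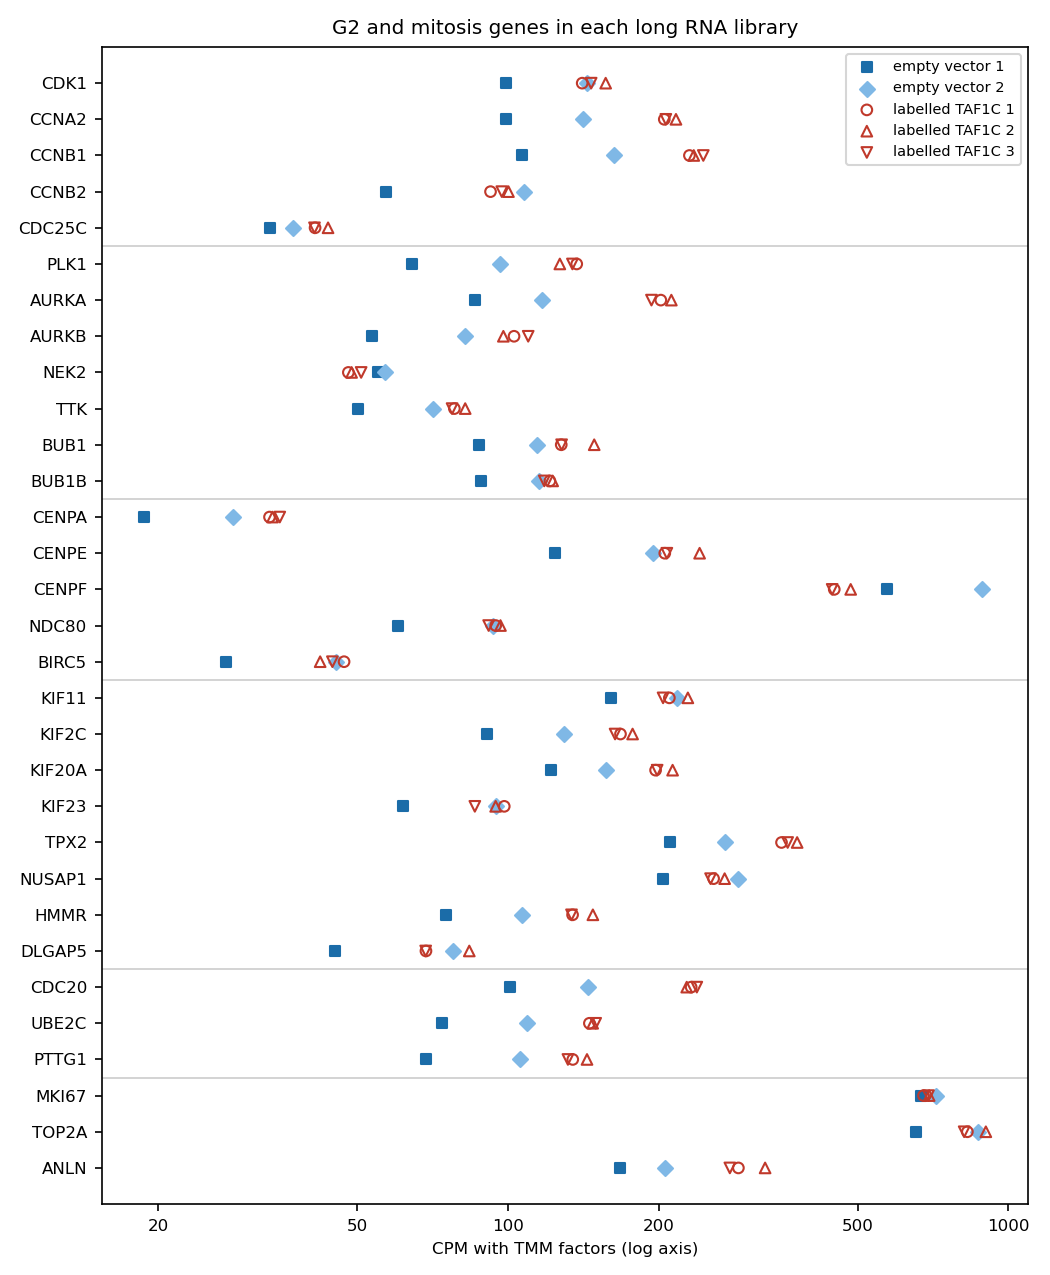
Level of each of the 31 genes in each of the 5 long RNA libraries, in CPM with TMM factors on a log axis, with 1 symbol per library and grey lines between roles. The first empty vector library (dark squares) is left of the second (light diamonds) for all 31 genes, and the 3 libraries labelled TAF1C (red) lie close together, right of both for 19 genes.

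Cyclin A2 (CCNA2), which drives S phase and the entry into mitosis, was at 99.3 and 141 CPM with the empty vector and 205, 217 and 207 CPM under the TAF1C label. Its mean was 120.4 ± 29.8 CPM (SD, n = 2) against 209.6 ± 6.16 CPM (SD, n = 3), a log2 difference of 0.80 ± 0.18 (SE) with an edgeR adjusted p = 0.0177. Cyclin B1 (CCNB1), the main mitotic partner of CDK1, was at 107 and 163 CPM with the empty vector and 231, 235 and 246 CPM under the TAF1C label, and rose by log2 0.82 ± 0.20 (SE; edgeR adjusted p = 0.025). For both cyclins the lowest library labelled TAF1C lay above the higher empty vector library. Cyclin B2 (CCNB2), whose protein is found mainly at the Golgi, did otherwise: it was at 56.98 and 108 CPM with the empty vector and 92.3, 100.2 and 97.2 CPM under the TAF1C label, so that the libraries labelled TAF1C lay between those with the empty vector. CCNB2 differed by log2 0.23 ± 0.27 (SE; edgeR adjusted p = 0.528). CDK1, the kinase of mitotic entry, was at 99.3 and 144 CPM with the empty vector and 141, 157 and 147 CPM under the TAF1C label. The second empty vector library fell within the range of the libraries labelled TAF1C, and the log2 fold change was 0.29 ± 0.18 (SE; adjusted p = 0.254). CDC25C, a phosphatase that frees CDK1 of inhibitory phosphates, was at 33.4 and 37.1 CPM with the empty vector and 41.1, 43.7 and 41.03 CPM under the TAF1C label, without overlap but with a log2 fold change of 0.25 ± 0.12 (SE; adjusted p = 0.145).

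Among the 7 mitotic kinases 2 rose, AURKA and PLK1. AURKA, which matures the centrosomes and is switched on by TPX2, was at 85.8 and 117 CPM with the empty vector and 202, 212 and 194 CPM under the TAF1C label. Its fold difference of 1.998 (log2 0.999 ± 0.17 SE, edgeR adjusted p = 0.00737) was the largest of the 31 members. PLK1, which acts from mitotic entry to cleavage, was at 64.3 and 96.4 CPM with the empty vector and 137, 127 and 135 CPM under the TAF1C label, and rose by log2 0.73 ± 0.19 (SE; adjusted p = 0.0302). Both genes were lowest in the first empty vector library. AURKB, the kinase of the chromosomal passenger complex that corrects faulty attachments, was at 53.4 and 82.03 CPM with the empty vector and 103, 97.9 and 109.7 CPM under the TAF1C label. Its groups did not overlap either, with a log2 fold change of 0.61 ± 0.20 (SE) and an adjusted p = 0.0568. It passed with DESeq2 (adjusted p = 0.0281) and with upper quartile scaling (0.0422), but not with library totals (0.0521), RLE size factors (0.0651), quantile normalization (0.064), no filter (0.144), filterByExpr (0.118) or the replicate block (0.126).

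The checkpoint kinases did not pass. BUB1 was at 87.5 and 114 CPM with the empty vector and 128, 149 and 128 CPM under the TAF1C label (log2 0.42 ± 0.16 SE, edgeR adjusted p = 0.0848). BUB1B, or BubR1, which inhibits the APC/C, was at 88.3 and 116 CPM with the empty vector and 121, 123 and 118 CPM under the TAF1C label (log2 0.24 ± 0.14 SE, adjusted p = 0.223). TTK, or MPS1, which recruits the checkpoint proteins to kinetochores, was at 50.2 and 70.8 CPM with the empty vector and 78.1, 82.1 and 77.3 CPM under the TAF1C label (log2 0.39 ± 0.17 SE, adjusted p = 0.118). In each of these 3 the libraries labelled TAF1C were above both others. Their mean exceeded the second empty vector library by less than that library exceeded the first. NEK2, a kinase that splits the centrosomes, was at 55.01 and 56.7 CPM with the empty vector and 47.96, 48.7 and 50.9 CPM under the TAF1C label, lower in all 3 libraries labelled TAF1C, with a log2 fold change of -0.18 ± 0.10 (SE; adjusted p = 0.207). Among the scalings and tools tried on all 5 libraries, other than scaling to the members' sum, NEK2 passed as lower with library totals alone (adjusted p = 0.0373). Scaled to the summed counts of the members, as described below, it passed as lower with DESeq2 (adjusted p = 0.0232). With edgeR on that scale NEK2 passed as lower with CENPF left out of the sum (adjusted p = 0.0255), but not with CENPF in it (0.0529).

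None of the 5 centromere and kinetochore members passed. CENPF, a large protein of the outer kinetochore, was at 574 and 885 CPM with the empty vector and 449, 484 and 445 CPM under the TAF1C label. Its mean was 729 ± 219.9 CPM (SD, n = 2) against 459 ± 21.7 CPM (SD, n = 3), 0.630 of the empty vector level, and it was the lowest of the 31 log2 fold changes at -0.67 ± 0.21 (SE; edgeR adjusted p = 0.0524). CENPF passed as lower with DESeq2 (adjusted p = 0.0419), library totals (0.00564), upper quartile scaling (0.0211) and quantile normalization with limma (5.97e-04). It did not pass with RLE size factors (0.0987), no filter (0.265), filterByExpr (0.163), the replicate number as a block (0.279) or any 1 library labelled TAF1C left out. CENPE, the kinesin that carries chromosomes to the spindle equator, was at 124 and 195 CPM with the empty vector and 206, 242 and 208 CPM under the TAF1C label (log2 0.45 ± 0.22 SE, adjusted p = 0.15). CENPA, the histone H3 variant that marks centromeres, was at 18.7 and 28.2 CPM with the empty vector and 33.4, 33.8 and 34.97 CPM under the TAF1C label (log2 0.54 ± 0.20 SE, adjusted p = 0.0812). Both were above the empty vector range in every library labelled TAF1C, and CENPA passed as higher with quantile normalization (adjusted p = 0.0481). NDC80, which grips the microtubule, was at 60.2 and 93.1 CPM with the empty vector and 94.5, 96.6 and 91.5 CPM under the TAF1C label (log2 0.30 ± 0.20 SE, adjusted p = 0.273). BIRC5, or survivin, of the passenger complex, was at 27.3 and 45.3 CPM with the empty vector and 47.02, 42.1 and 44.6 CPM under the TAF1C label (log2 0.30 ± 0.23 SE, adjusted p = 0.343). For NDC80 and BIRC5 the second empty vector library lay inside the range of the libraries labelled TAF1C.

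Of the 8 spindle motors and microtubule binders 4 rose. TPX2, which nucleates spindle microtubules and activates AURKA, was at 211 and 272 CPM with the empty vector and 352, 378 and 362 CPM under the TAF1C label, a rise of 0.59 ± 0.16 (SE) on the log2 scale (edgeR adjusted p = 0.0301). KIF2C, a kinesin that takes microtubules apart at kinetochores, was at 90.7 and 129 CPM with the empty vector and 168, 177 and 164 CPM under the TAF1C label and rose by log2 0.62 ± 0.18 (SE; adjusted p = 0.0374). HMMR, a spindle pole protein and hyaluronan receptor, was at 75.001 and 107 CPM with the empty vector and 135, 148 and 134 CPM under the TAF1C label and rose by log2 0.61 ± 0.18 (SE; adjusted p = 0.0395). In these 3 the second empty vector library stood between the first and the libraries labelled TAF1C. KIF20A, a kinesin of the central spindle, was at 122 and 157 CPM with the empty vector and 197, 213 and 199 CPM under the TAF1C label and rose by log2 0.55 ± 0.15 (SE; adjusted p = 0.0336).

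The other 4 of this role overlapped between the groups. KIF11, or Eg5, which pushes the spindle poles apart, was at 160.5 and 218 CPM with the empty vector and 210.2, 229 and 204 CPM under the TAF1C label (log2 0.18 ± 0.17 SE, edgeR adjusted p = 0.427). KIF23, which bundles the central spindle with its partner RACGAP1, was at 61.7 and 94.7 CPM with the empty vector and 98.3, 94.5 and 85.8 CPM under the TAF1C label (log2 0.25 ± 0.20 SE, adjusted p = 0.362). DLGAP5, which stabilises kinetochore fibres, was at 45.1 and 77.6 CPM with the empty vector and 68.5, 83.7 and 68.5 CPM under the TAF1C label (log2 0.26 ± 0.25 SE, adjusted p = 0.439). Each of these 3 was lowest in the first empty vector library, with the second inside the range of the libraries labelled TAF1C. NUSAP1, which links microtubules to chromosomes, was at 204 and 288 CPM with the empty vector and 258, 271 and 254 CPM under the TAF1C label (log2 0.084 ± 0.17 SE, adjusted p = 0.728), and was highest in the second empty vector library.

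All 3 members of the APC/C step rose. CDC20, the activator that the checkpoint holds back, was at 101 and 145 CPM with the empty vector and 232, 228 and 238 CPM under the TAF1C label. Its mean was 123 ± 30.97 CPM (SD, n = 2) against 233 ± 5.43 CPM (SD, n = 3), 1.90-fold higher (log2 0.92 ± 0.18 SE, edgeR adjusted p = 0.012). UBE2C, the ubiquitin-conjugating enzyme that works with the APC/C, was at 73.7 and 109 CPM with the empty vector and 145, 148 and 149.7 CPM under the TAF1C label and rose by log2 0.69 ± 0.18 (SE; adjusted p = 0.0314). PTTG1, or securin, which keeps separase inactive, was at 68.5 and 106 CPM with the empty vector and 135, 144 and 132 CPM under the TAF1C label and rose by log2 0.65 ± 0.20 (SE; adjusted p = 0.0486). PTTG1 did not pass with RLE size factors (adjusted p = 0.0576), no filter (0.126), filterByExpr (0.108), the replicate number as a block (0.0716) or any 1 library labelled TAF1C left out. The groups did not overlap for any of the 3, and each was lowest in the first empty vector library. Near-identical copies held few counts: CDC20P1 had at most 3.25% of the CDC20 count in a library, and the other named pseudogenes at most 1.66% of the member they copy. The sources used here do not say how reads that fit a gene and its copy were assigned, or whether strand was used.

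Of the 3 genes of chromosome structure and cleavage 1 rose. ANLN, or anillin, which shapes the cleavage furrow, was at 168 and 206 CPM with the empty vector and 289, 327 and 278 CPM under the TAF1C label and rose by log2 0.67 ± 0.15 (SE; edgeR adjusted p = 0.0195). MKI67, the Ki-67 protein that coats mitotic chromosomes and is widely stained to count cycling cells, was at 670.1 and 718 CPM with the empty vector and 677, 695 and 693 CPM under the TAF1C label. The 5 libraries were within 1.07-fold of each other for MKI67, and its log2 fold change was -0.012 ± 0.14 (SE; adjusted p = 0.954). TOP2A, the topoisomerase that untangles sister chromatids, was at 655 and 872 CPM with the empty vector and 829, 902 and 816 CPM under the TAF1C label (log2 0.15 ± 0.18 SE, adjusted p = 0.538). With quantile normalization and limma both were called lower, MKI67 with an adjusted p = 0.0252 and TOP2A with 0.00765, a change of sign for TOP2A.

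The members other than NEK2 differed more between the empty vector libraries than among those labelled TAF1C. All 31 were higher in the second empty vector library than in the first, against 48.9% of the genes tested, by 1.03 to 1.89-fold with a median of 1.43, while the median over all genes was 0.987. On the scale of library totals 28 of 31 were higher in the second, against 34.5% of genes, with a median of 1.20. Cyclin B2 had the widest gap and NEK2 the narrowest. Between the highest and the lowest library labelled TAF1C the members' ratio was 1.03 to 1.22, with a median of 1.08 beside 1.17 over all genes. The difference between the 2 empty vector libraries has no replicate and was not tested.

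The summed level of the 31 genes was 4389 and 5989.9 CPM with the empty vector and 6150.5, 6528 and 6151 CPM under the TAF1C label. The mean of the libraries labelled TAF1C was 1.43 times the first empty vector library and 1.05 times the second. By library totals these ratios were 1.12 and 0.994, so that on that scale the second empty vector library lay within the range of the libraries labelled TAF1C.

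Tested against the first empty vector library alone, 28 members were higher and 1, CENPF, was lower, with shares of 35.8% and 34% over all genes and a median log2 fold change of 0.71. Against the second alone, 13 were higher and 4 lower, with shares of 29% and 29.5% over all genes and a median of 0.11. Here only the libraries labelled TAF1C supply the spread, and the lone library is assumed to vary as they do. Called higher in both were 13 members (against 21.7% of the 16120 genes tested in both), the 12 named above and AURKB, and called lower in both was CENPF (against 19.9%). CENPF had a log2 fold change of -0.35 against the first and -1.01 against the second. Cyclin B2 and NUSAP1 changed sides: CCNB2 was at 0.73 against the first and -0.22 against the second, and NUSAP1 at 0.32 and -0.21, all past the test. CDK1 was at 0.54 against the first and -0.023 against the second, where it did not pass (edgeR adjusted p = 0.827). AURKA was at 1.21 and 0.73, and CDC20 at 1.18 and 0.62.

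**Figure D2:**
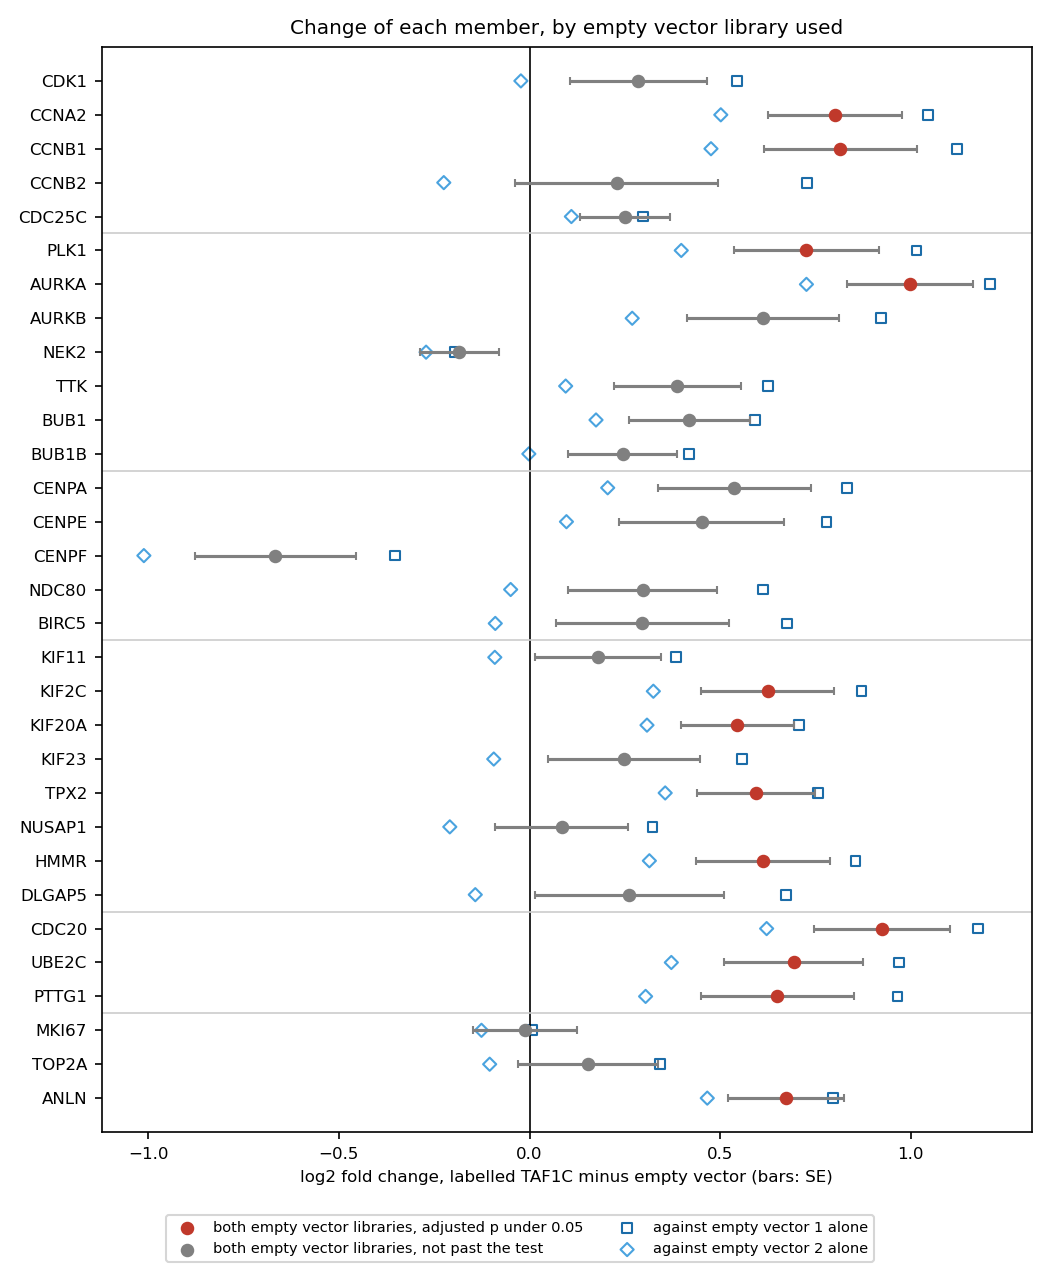
Log2 fold change of each of the 31 genes between the libraries labelled TAF1C and both empty vector libraries (filled circles with SE bars, red past an edgeR adjusted p under 0.05), and against the first (squares) or the second (diamonds) empty vector library alone. The 12 red genes stay right of 0 against either library, CENPF stays left of 0, and 10 genes with a filled circle right of 0 have a diamond left of it.

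To compare the members with each other free of the library scale, each library was also scaled to the summed counts of the 31 genes, a comparison added after the levels were seen. Relative to that sum 12 members rose (against 9.94% of all genes) and 1, CENPF, fell (against 26.9%). This scaling centres the members on their own sum and not the other genes, so the shares of all genes are not a like background. A fall of 1 abundant member also lifts the values of the others. The 12 were the same members that rose with TMM, from the same counts, so this is not independent of the TMM result. Of the counts of the list, CENPF held 13.1% and 14.8% with the empty vector and 7.30%, 7.42% and 7.23% under the TAF1C label, with a log2 fold change within the list of -0.93 ± 0.086 (SE; edgeR adjusted p = 0.00185). AURKA held 1.95% and 1.95% with the empty vector and 3.29%, 3.25% and 3.15% under the TAF1C label, with a value of 0.72 ± 0.077 (SE; adjusted p = 0.0027). MKI67 held 15.3% and 11.98% with the empty vector and 11.01%, 10.6% and 11.3% under the TAF1C label (log2 -0.31 ± 0.12 SE, adjusted p = 0.0946). CDK1 held 2.26% and 2.40% with the empty vector and 2.29%, 2.40% and 2.38% under the TAF1C label, with 0.017 ± 0.081 (SE; adjusted p = 0.886).

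The counts within the list moved with the sum and the libraries used. With CENPF left out of the sum 6 members rose (CCNA2, CCNB1, PLK1, AURKA, CDC20 and UBE2C) and 4 fell (CENPF, NEK2, NUSAP1 and MKI67). Without 1 of the libraries labelled TAF1C, 2 to 4 rose and CENPF alone fell. Against the first empty vector library alone 16 rose and 5 fell, and against the second alone 13 rose and 4 fell. CENPF was lower and AURKA higher in all of these fits. Over all genes, the shares raised and lowered were 8.06% and 32.4% without CENPF in the sum, 2.79% and 9.78%, 4.17% and 9.07% and 2.78% and 9.75% without TAF1C replicate 1, 2 or 3, 18.4% and 51.1% against the first and 26.9% and 27.8% against the second empty vector library. They were 12.5% and 33.8% with DESeq2, 2.9% and 10.6% with no filter and 3.65% and 14% with the replicate number as a block.

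**Figure D3:**
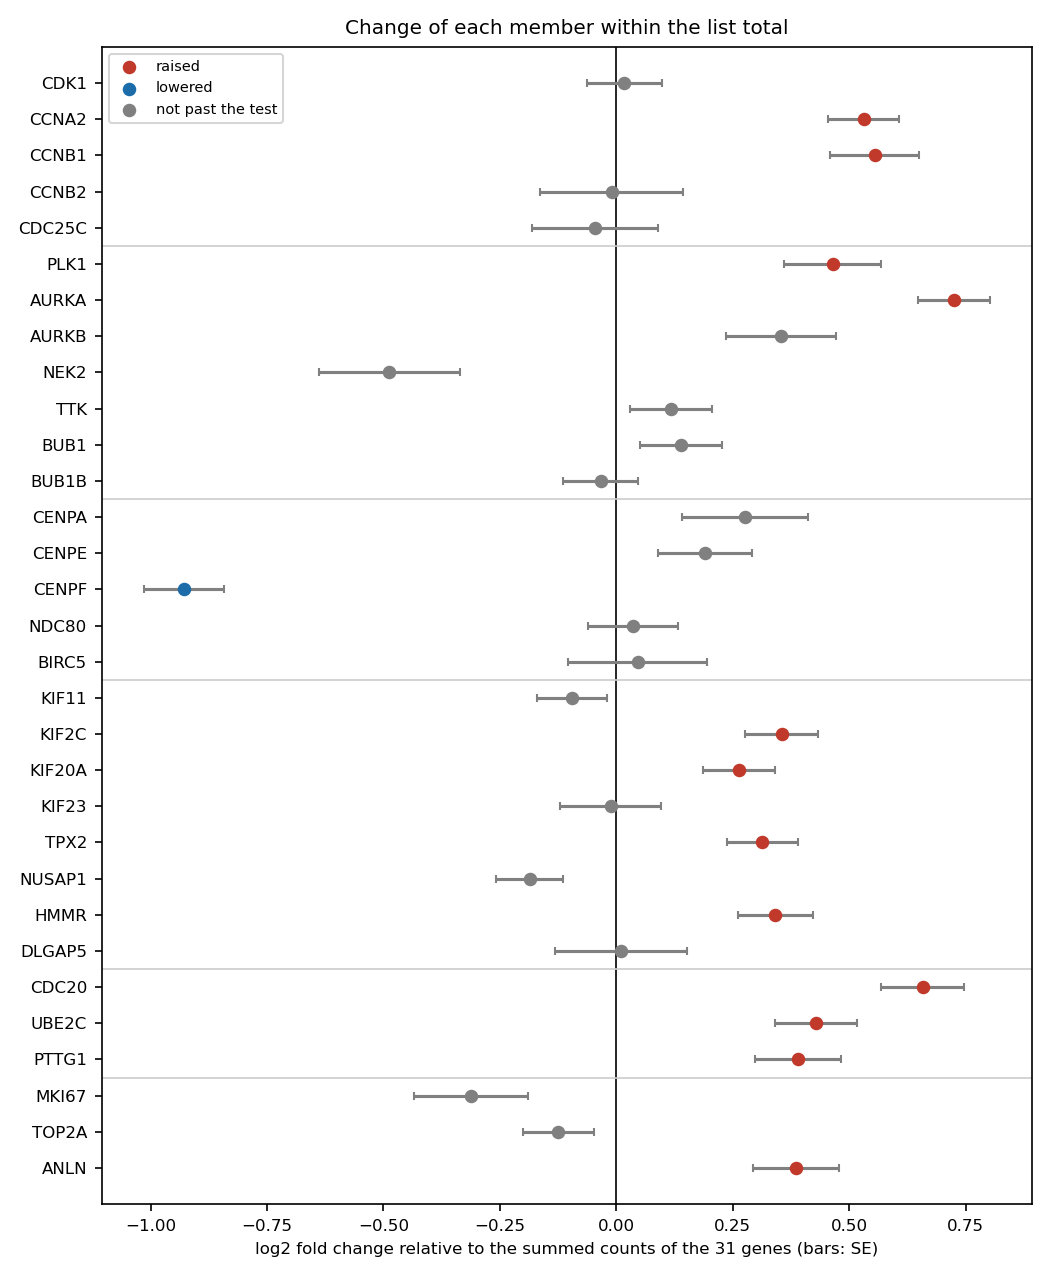
Log2 fold change of each of the 31 genes between the libraries labelled TAF1C and the empty vector libraries after scaling each library to the summed counts of the list, with SE bars and colour by call. CENPF, at -0.93, is the gene that fell, and the 12 genes that rose run from KIF20A at 0.26 to AURKA at 0.72.

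The wider machinery was followed in lists of other cell division genes, none of them a member. Of 17 APC/C subunits and regulators, 8 rose and 0 fell, with a median log2 fold change of 0.48 beside -0.10 over all genes. The subunit ANAPC15 was at 8.96 and 9.17 CPM with the empty vector and 19.99, 20.1 and 21.3 CPM under the TAF1C label (log2 1.17 ± 0.16 SE, edgeR adjusted p = 0.00387), CDC16, another subunit, rose by log2 0.70 ± 0.11 (SE), and UBE2S, which extends the ubiquitin chains, by log2 0.91 ± 0.19 (SE). The APC/C list had 12 raised and 0 lowered against the first empty vector library alone, and 10 and 1 against the second alone. For comparison with this list and with each list below, 15.9% of all genes rose and 22.6% fell. The shares of all genes against each empty vector library alone are those given above.

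Of 28 other kinetochore and checkpoint genes 5 rose and 3 fell (median 0.20). The Mis12 complex gene DSN1 rose by log2 0.60 ± 0.10 (SE), the checkpoint protein BUB3 by log2 0.55 ± 0.16 (SE) and HJURP, the chaperone that places CENPA, by log2 0.45 ± 0.12 (SE). Lower were CENPU (log2 -1.18 ± 0.13 SE), CENPC (log2 -0.69 ± 0.14 SE), which binds CENPA chromatin, and KNTC1 (log2 -0.39 ± 0.11 SE). CENPU was at 56.5 and 65.8 CPM with the empty vector and 24.7, 28.4 and 27.8 CPM under the TAF1C label, so it stood, like CENPF, below both empty vector libraries. This list had 17 raised and 4 lowered against the first empty vector library alone, and 8 and 10 against the second alone. Of 18 condensin, cohesin and separase genes 4 rose and 3 fell (median 0.18): CDCA5, or sororin, rose by log2 1.02 ± 0.14 (SE), separase (ESPL1) by log2 0.44 ± 0.10 (SE) and the condensin II gene NCAPG2 by log2 0.34 ± 0.10 (SE), while the cohesin genes SMC3 (log2 -0.64 ± 0.11 SE), PDS5B (log2 -0.44 ± 0.099 SE) and SMC1A (log2 -0.39 ± 0.12 SE) fell. This list had 12 raised and 5 lowered against the first empty vector library alone, and 5 and 5 against the second alone.

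Of 25 tested spindle and cytokinesis genes outside the list 5 rose and 2 fell (median 0.17). CEP55, which starts the final cut between daughter cells, rose by log2 0.67 ± 0.16 (SE), gamma-tubulin (TUBG1) by log2 0.65 ± 0.17 (SE) and the chromosome kinesin KIF4A by log2 0.64 ± 0.11 (SE). The centrosome protein CEP192 fell, from 165 and 212 CPM to 89.1, 95.9 and 90.97 CPM (log2 -1.04 ± 0.14 SE, edgeR adjusted p = 0.00378), as did stathmin (STMN1), which destabilises microtubules, from 397 and 679 CPM to 199.995, 221 and 211 CPM (log2 -1.35 ± 0.24 SE, adjusted p = 0.0086). The spindle list had 15 raised and 2 lowered against the first empty vector library alone, and 8 and 6 against the second alone. HAUS1, of the augmin complex, was named after its values were seen: it was at 37.7 and 727 CPM with the empty vector and 46.9, 46.9 and 43.4 CPM under the TAF1C label, high in the second empty vector library alone, and did not pass (adjusted p = 0.0611).

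Among 20 regulators of the step from G2 to mitosis 7 rose and 3 fell (median 0.29). WEE1, the kinase that inhibits CDK1, was at 94.9 and 129 CPM with the empty vector and 60.2, 63.1 and 60.1 CPM under the TAF1C label, a log2 difference of -0.87 ± 0.15 (SE; edgeR adjusted p = 0.00852). CDC25B, a phosphatase that opposes WEE1, was at 78.4 and 83.6 CPM with the empty vector and 138, 128 and 137 CPM under the TAF1C label and rose by log2 0.73 ± 0.11 (SE; adjusted p = 0.00496). CDKN1A, or p21, an inhibitor of cyclin-dependent kinases and a p53 target, was at 52.9 and 123 CPM with the empty vector and 31.2, 28.6 and 28.9 CPM under the TAF1C label (log2 -1.57 ± 0.33 SE, adjusted p = 0.0162). WEE1 and CDKN1A were highest in the second empty vector library and low in all 3 libraries labelled TAF1C. CKS2, a small subunit of CDK complexes, rose by log2 1.07 ± 0.19 (SE), TRIP13, which recycles checkpoint proteins, by log2 0.97 ± 0.15 (SE), and the DNA damage kinase ATM had a log2 fold change of -0.45 ± 0.13 (SE). This list had 13 raised and 3 lowered against the first empty vector library alone, and 7 and 6 against the second alone.

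Of 22 transcription factors of cell cycle genes 3 rose and 3 fell (median -0.10). FOXM1, which activates G2 and mitosis genes, was at 55.2 and 61.1 CPM with the empty vector and 89.2, 83.9 and 94.4 CPM under the TAF1C label and rose by log2 0.62 ± 0.12 (SE; edgeR adjusted p = 0.0107). TFDP1, the partner of E2F proteins, rose by log2 1.0002 ± 0.15 (SE) and E2F4, the E2F protein of DREAM, by log2 0.79 ± 0.24 (SE; adjusted p = 0.0486). E2F2 (log2 -1.39 ± 0.15 SE), E2F3 (log2 -0.93 ± 0.15 SE) and the repressor E2F7 (log2 -0.56 ± 0.15 SE) fell. MYBL2, named for its part in switching on these promoters, was at 199 and 319 CPM with the empty vector and 432, 404 and 421 CPM under the TAF1C label (log2 0.69 ± 0.22 SE, adjusted p = 0.0533) and did not pass. This list had 8 raised and 7 lowered against the first empty vector library alone, and 6 and 10 against the second alone.

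The S phase genes are the nearest list in the cycle. Of 42, 7 rose and 2 fell, with a median of 0.21, against 12 and 0 of 31 for the members. Over all genes 15.9% rose and 22.6% fell, with a median of -0.10. The share of S phase genes that rose was near the background. The share that fell was below it, and the median was above that of all genes, as for the members. CDC45, of the replicative helicase, rose by log2 0.75 ± 0.13 (SE), the polymerase subunit POLD1 by log2 0.71 ± 0.11 (SE) and thymidine kinase TK1 by log2 0.81 ± 0.16 (SE), while the initiating cyclin CCNE1 (log2 -0.86 ± 0.24 SE) and POLE2 (log2 -0.59 ± 0.13 SE) fell. Against the second empty vector library alone 11 S phase genes rose and 15 fell (median -0.037), against the first alone 26 rose and 8 fell (median 0.48). Whether the 2 lists differ from each other was not tested.

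**Figure D4:**
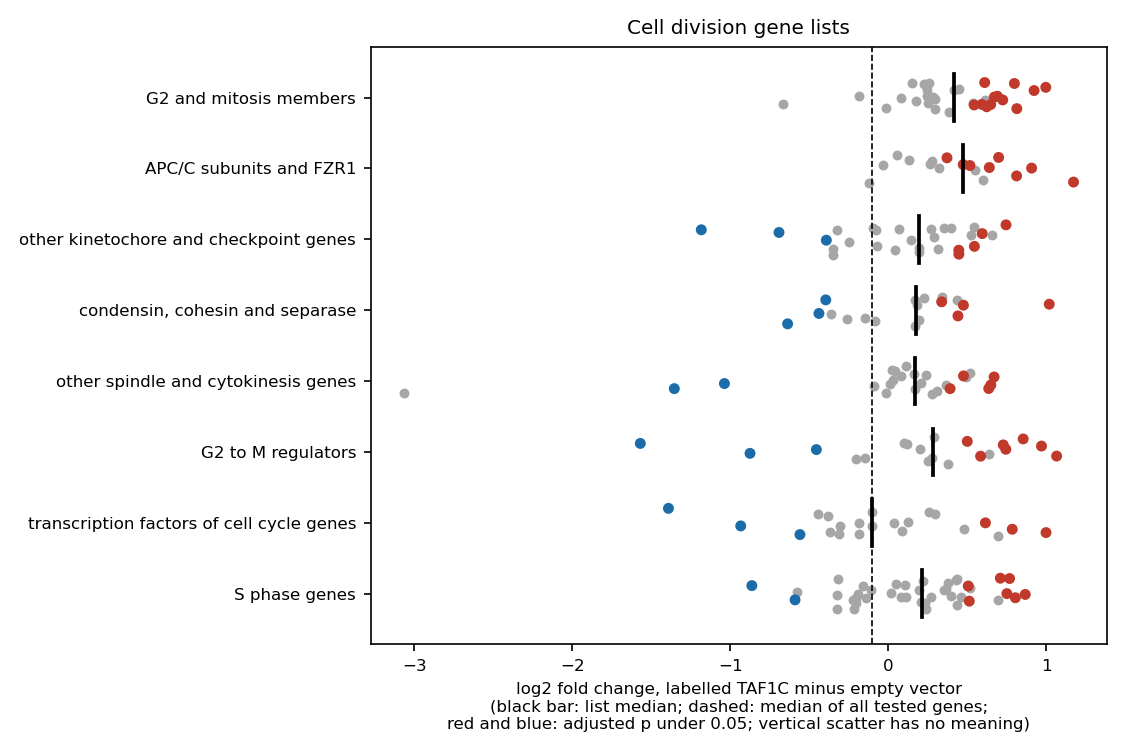
Log2 fold change of every tested gene of the 31 members and of 7 other cell division lists, with a bar at each list's median and a dashed line at the median of all tested genes, -0.10. Red and blue genes passed at an edgeR adjusted p under 0.05. The members show 12 red and no blue genes, whereas the lists other than the APC/C subunits show both colours, and the lone grey point near -3 is HAUS1.

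The background moved with the setting as well. Raised and lowered over all genes were 12.3% and 27.3% with library totals, 16% and 20.9% with RLE size factors, 15.8% and 24% with upper quartile scaling and 23.4% and 15.8% with quantile normalization. They were 3.61% and 8.55% with no filter, 7.18% and 13.9% with filterByExpr and 7.74% and 14.5% with the replicate number as a block, where 2, 2 and 3 members were raised. The shares lowered without TAF1C replicate 1, 2 or 3 were 11.3%, 10.7% and 11.1%. With 1 library left out, the raised genes of the other lists numbered as few as 2 for the APC/C, 0 for the kinetochore, 1 for condensin and cohesin, 0 for the spindle, 3 for the G2 regulators, 1 for the transcription factors and 1 for S phase.

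**Figure D5:**
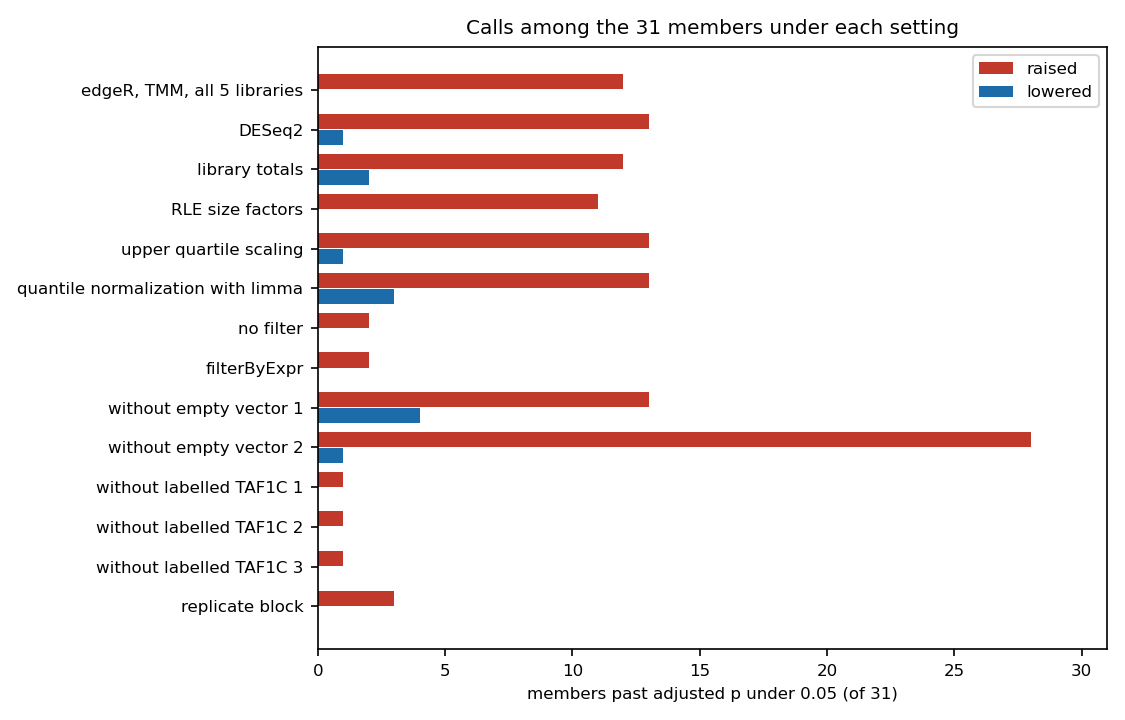
Number of the 31 genes called higher (red) or lower (blue) in the libraries labelled TAF1C under each setting of the analysis, at an adjusted p under 0.05. The raised counts run from 1, without any 1 library labelled TAF1C, to 28, without the second empty vector library, with 11 to 13 under the alternative scalings and DESeq2.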

How the data were processed

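For each long RNA library the authors deposited unnormalized counts of 57773 Ensembl gene rows. The labels' protocols name mirVana isolation, ribosomal RNA depletion and NEBNext Ultra libraries. Per the submitters' processing notes the build is hg19, and Trimmomatic 0.36, Cufflinks 2.2.1, HISAT2, DESeq2 and Bowtie2 2.2.4 were among the tools. The role of each tool, the annotation and the treatment of reads that fit several genes are not given in the sources at hand.

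Symbols on more than 1 row (236 of 55771) were summed. The 2 empty vector and 3 TAF1C libraries were compared by edgeR 4.0.16 (R 4.3.3; quasi-likelihood, TMM scaling, no covariate) over the 18402 genes that reached 1 CPM in 2 libraries or more. The p were two-sided and adjusted by Benjamini-Hochberg over all genes tested, at 0.05. SE is the log2 fold change divided by the square root of F. The procedure was tested on simulated data. Alternatives were DESeq2 1.42.0, other scalings, quantile normalized log2 CPM (prior count 2) with limma 3.58.1, other filters, each library left out, and the replicate number as a block. Scaling to the members' sum was added after seeing the data.

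The members and lists were chosen with earlier results of these data known. All members were named, and of each other list up to 3 genes past the test with the smallest adjusted p in each direction, with the most abundant gene of each marker list (KRT7, FN1, IMPG2, SYP, HBB and KDR). In the haematopoietic list 0 of 5 tested genes rose and 1 fell, and in the endothelial list 0 of 5 rose and 1 fell. The mesenchymal list had 2 raised and 1 lowered of 8, and the epithelial list 3 and 1 of 7. Of 272 list entries, 268 matched by symbol, 3 by Ensembl ID (KNL1, SGO1 and WAPL) and PECAM1 matched no row. Replicates differed by more than sampling noise, so none were merged. A member had 503 to 30670 counts per library, which bounds the counting error only. Promoters came from RefSeq, GRCh38.p14. Plots were made in Python 3.11.15 with matplotlib 3.10.9.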

Additional observations from a re-analysis of the deposited data

How the results depend on the processing

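Raised members numbered 2 with no filter, 2 with filterByExpr (AURKA and CDC20 in both) and 1 to 28 with 1 library left out; lowered members numbered 1 with DESeq2, 2 with library totals, 1 with upper quartile scaling, 3 with quantile normalization and 0 to 4 with 1 library left out. The cause of these shifts was not tested. The members' median ran from 0.11 to 0.71 with 1 library left out. Within the list total, 7 rose with no filter and 6 without CENPF in the sum, and 3 fell with DESeq2 and 4 without CENPF, with 2 to 16 raised and 1 to 5 lowered when 1 library was left out. Over all genes, 2922 rose and 4158 fell, 1817 rose with no filter, and 1058 to 5967 rose and 1960 to 5665 fell with 1 library left out. Higher were 41.3% of all calls under TMM, 31.1% under library totals, 59.6% under quantile normalization and 29.7% with no filter, where under the first 3 the median of all genes was -0.10, -0.33 and 0.22. The TAF1C transcript fell by 0.38 with library totals (edgeR adjusted p = 0.0316) and by 0.36 without empty vector replicate 1 (0.00133), with values of -0.36 to -0.057 when 1 library was left out.

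Signs turned for KIF11 (-0.023), NUSAP1 (-0.12) and TOP2A (-0.050) with library totals, for the same genes with quantile normalization (-0.089, -0.22 and -0.42), and for MKI67 with DESeq2 (0.053), RLE size factors (0.053), filterByExpr (0.039), no filter (0.079), without empty vector replicate 2 (0.0060) and without TAF1C replicate 1 (0.0031). With 1 library left out, signs turned without empty vector replicate 1, with ranges over the left-out libraries of -0.090 to 0.68 for BIRC5, -0.0018 to 0.42 for BUB1B, -0.22 to 0.73 for CCNB2, -0.023 to 0.54 for CDK1, -0.14 to 0.67 for DLGAP5, -0.091 to 0.39 for KIF11, -0.094 to 0.56 for KIF23, -0.050 to 0.61 for NDC80, -0.21 to 0.32 for NUSAP1 and -0.10 to 0.34 for TOP2A. MKI67 ran from -0.13 to 0.0060.

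The labels give replicates 1 and 2 in both groups and do not say what a number marks. The deviations of same-numbered libraries correlated at 0.043 and 0.14. With 2 empty vector libraries their deviations mirror each other, so these values cannot decide whether the numbers pair libraries. The main fit took no pairing, and the replicate block was run as an alternative. With the replicate block 1425 genes rose and 2662 fell, and 3 members rose (CCNA2, AURKA and CDC20). Within the list total 1 member, AURKA, rose with the replicate block, and CENPF fell (log2 -0.92, edgeR adjusted p = 0.019). The lowest count of a member in a library was 503.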
